A study of Mus musculus with 6 samples.

Results

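The pentose phosphate pathway and the enzyme Idh1 were examined in the hearts of TG-PKR1 mice, through 8 genes: G6pdx, H6pd, Pgls and Pgd of the oxidative branch, Rpia, Tkt and Taldo1 of the non-oxidative branch, and Idh1. Every probe other than controls that carries one of these names in the scanner files was taken, which gave 12 probes among the 41174 of the array, for 8 of its 27745 gene names. The study compared 3 wild type (WT) hearts with 3 TG-PKR1 hearts, all from male mice aged 12 weeks, with one Agilent array and one dye (Cy3) per heart. TG-PKR1 mice overexpress PKR1, a G protein-coupled receptor for prokineticins, under the alpha myosin heavy chain (αMHC) promoter, which is active in cardiomyocytes, and the study kept its mice on a C57BL6/J background. Whole hearts were profiled, so fewer cells of a type and less RNA per cell cannot be told apart.

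The oxidative branch converts glucose 6-phosphate to ribulose 5-phosphate and reduces NADP to NADPH on the way. The non-oxidative branch then exchanges sugar phosphates between the pathway and glycolysis, and supplies ribose for nucleotides. Idh1, the cytosolic NADP-dependent isocitrate dehydrogenase, makes NADPH outside this pathway. NADPH is used for fatty acid synthesis, which is very active in fat tissue, and for keeping glutathione and thioredoxin reduced, a use shared by cardiomyocytes.

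Probes well above background, by the test of the scanner software, numbered 19662 to 23587 in WT and 21105 to 24944 in TG-PKR1 hearts. The hearts are called replicates 1, 2 and 3 of their group, and the numbers pair nothing. On the arrays of WT replicate 1 and TG-PKR1 replicates 2 and 3, between 955 and 1252 spots carried values rescaled from a second scan at lower gain (2-gain arrays). The other 3 arrays held 0 such spots (1-gain arrays). This setting was inferred from those spots and the saturation value, since the header marks an extended dynamic range on all 6 arrays. On the 1-gain arrays the upper-quartile signal was 2.08 to 3.97 times the background, against 11.4 to 14.1 times on the 2-gain arrays. The 6 arrays lay on 5 slides, and WT replicate 2 shared a slide with TG-PKR1 replicate 1. Prokr1, which encodes PKR1, has a single probe, which was well above background on 0 of 6 arrays, so the genotypes could not be checked by it. Cardiomyocyte markers were bright in both groups: the summed signal of all 10 was 986111 to 1422220 in WT and 1007030 to 1745340 in TG-PKR1 hearts. Values below are log2 signals after loess normalization, without background subtraction, and differences are TG-PKR1 minus WT with limma's standard error (SE) and 95% interval for that probe alone.

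Tkt and G6pdx showed the largest differences among the 8 genes, with WT signals 4.24-fold and 2.19-fold those of TG-PKR1 hearts. Taldo1 and Rpia also lay lower in every TG-PKR1 heart, by 1.48-fold and 1.19-fold. The ranges of the groups overlapped for Pgd, H6pd, Pgls and Idh1. Of the 12 probes, 10 were among the 20000 brightest probes that were tested, and these 10 were well above background on all 6 arrays, with none saturated. After Benjamini-Hochberg adjustment over the 20000 probes, limma called 0 of the 10 member probes, where it called 19 probes (0.095%) lower and 0 higher in TG-PKR1 hearts. That count of 19 became 2 when the loess was smoothed along the median profile alone, and the axis used here was settled after both counts had been seen. It became 0 with the scan setting as a block, and was 0 without TG-PKR1 replicate 1 or 3 or WT replicate 1 or 3, 8 without TG-PKR1 replicate 2 and 19 without WT replicate 2. At an unadjusted limma p under 0.05, 4 of the 10 were lower and 0 higher, against 1.66% and 0.715% of all probes tested. SAM, the permutation test named in the study's methods, called 1 of the 10 lower (Tkt), against 0.271% of probes. Every TG-PKR1 heart lay below every WT heart for 4 of the 10, against 2.73% of probes, and above every WT heart for 0 of the 10, against 2.68%. A group mean below that of WT was seen for 8 of the 10, against 41.8% of probes. These counts are descriptions, since the members and the gene lists below were chosen with earlier results of these data known. H6pd and Pgd each enter the 10 with both of their probes. With 3 hearts against 3, the smallest p of a two-sided exact permutation test of one value is 0.1.

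**Figure D1:**
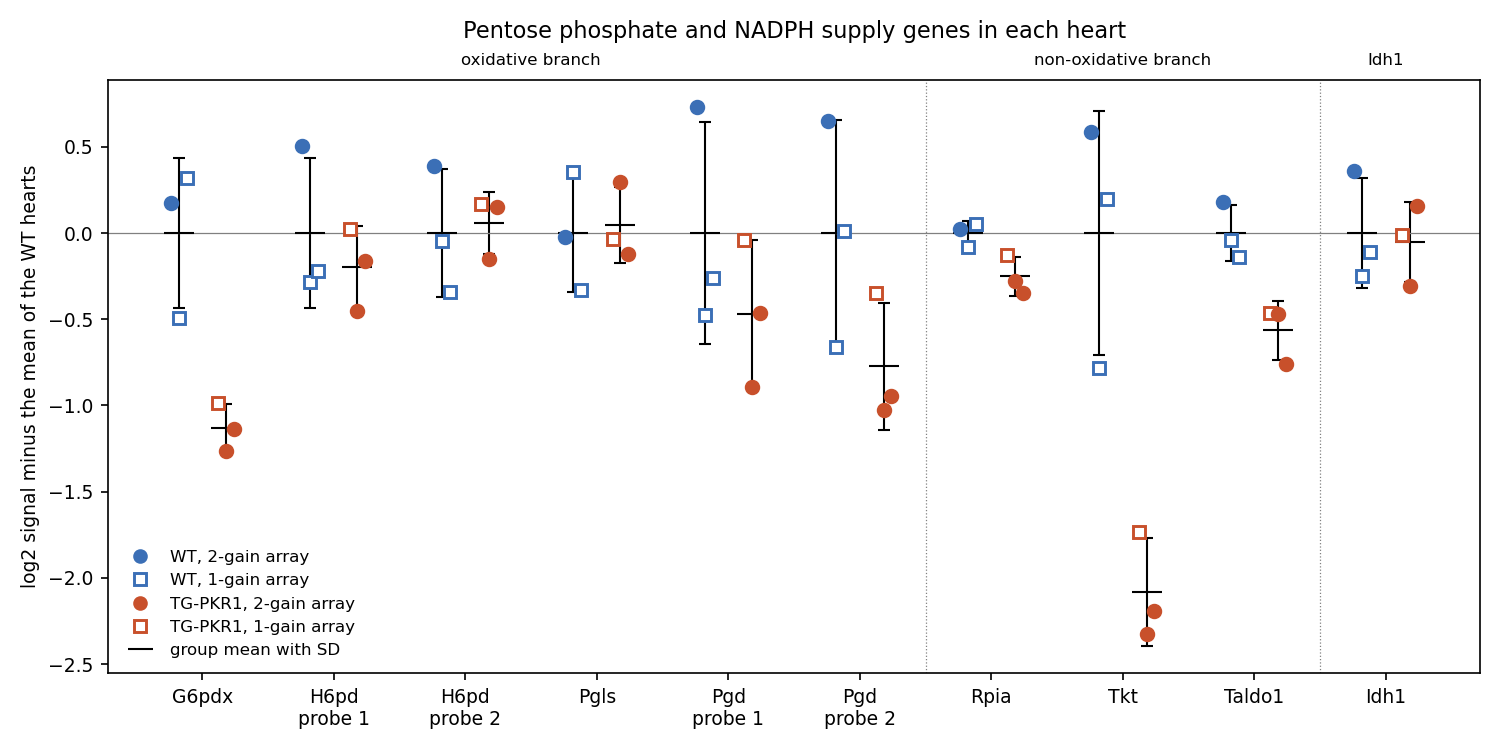
Log2 signal of each member probe in each heart, minus the mean of the WT hearts; points are hearts, filled circles 2-gain and open squares 1-gain arrays, and bars give the group mean with SD (n = 3). The TG-PKR1 hearts lie apart from the WT hearts for G6pdx, Rpia, Tkt and Taldo1, with the widest gap for Tkt.

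G6pdx encodes glucose 6-phosphate dehydrogenase, the enzyme that commits glucose 6-phosphate to the oxidative branch. Its probe A_51_P187082 lies on chromosome X of mm8, from 70662330 to 70662389 on the minus strand. The log2 signal was 10.11, 9.44 and 10.26 in WT replicates 1, 2 and 3 and 8.95, 8.67 and 8.80 in TG-PKR1 replicates 1, 2 and 3. The groups did not overlap, although WT replicate 2 lay closer to the mean of the TG-PKR1 hearts than to the mean of the other WT hearts. The difference was -1.13 (SE 0.22, 95% interval -1.64 to -0.62), with a limma p of 0.000855 and an adjusted p of 0.280, the 61st smallest p of the 20000 probes. Within the 2-gain arrays the difference was -1.37, within the 1-gain arrays -0.90, and on the shared slide -0.49. With the scan setting as a block it was -1.14 (adjusted p = 0.694).

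H6pd encodes the related dehydrogenase of the endoplasmic reticulum, which supplies NADPH inside that compartment. Both of its probes lie on chromosome 4. On A_51_P321643 (148823405 to 148823464) the log2 signal was 10.90, 10.11 and 10.18 in WT and 10.42, 9.94 and 10.23 in TG-PKR1 hearts, a difference of -0.20 (SE 0.24, 95% interval -0.74 to 0.35). On A_52_P83549 (148824181 to 148824240) it was 8.05, 7.61 and 7.32 in WT and 7.83, 7.51 and 7.81 in TG-PKR1 hearts, a difference of 0.058 (SE 0.21, 95% interval -0.42 to 0.54). The groups overlapped on both probes, and both adjusted p were 0.9999. For these probes the sign differed between scan settings: -0.81 and -0.39 within the 2-gain arrays, and 0.27 and 0.37 within the 1-gain arrays. On the shared slide they differed by 0.31 and 0.22.

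Pgls encodes the lactonase that follows G6pdx in the cytosol. Its probe A_51_P321794 lies on chromosome 8, between 74524134 and 74525048. The log2 signal was 10.51, 10.89 and 10.20 in WT and 10.50, 10.83 and 10.42 in TG-PKR1 hearts. The WT hearts spanned the whole range of the TG-PKR1 hearts. The difference was 0.047 (SE 0.21, 95% interval -0.43 to 0.52, adjusted p = 0.9999), and on the shared slide it was -0.39.

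Pgd encodes 6-phosphogluconate dehydrogenase, the other NADPH-making step of the branch, and its probes both lie on chromosome 4. On A_52_P84096 (147993984 to 147994043) the log2 signal was 10.73, 9.41 and 10.09 in WT and 9.73, 9.05 and 9.13 in TG-PKR1 hearts. Here 2 of 3 TG-PKR1 hearts lay below all WT hearts, and TG-PKR1 replicate 1 lay above WT replicate 2. The difference was -0.77 (SE 0.33, 95% interval -1.52 to -0.026), with a limma p of 0.0440 and an adjusted p of 0.9999. On A_51_P391996 (147994503 to 147994562) the log2 signal was 10.02, 8.81 and 9.03 in WT and 9.25, 8.39 and 8.82 in TG-PKR1 hearts, a difference of -0.47 (SE 0.33, 95% interval -1.23 to 0.30). The 2-gain arrays hold a single WT heart and the 1-gain arrays a single TG-PKR1 heart. Between these settings the Pgd values differed more than those of G6pdx, which was not tested. The probes differed by -1.64 and -1.41 within the 2-gain arrays, which hold the single brightest heart (WT replicate 1), but by -0.023 and 0.33 within the 1-gain arrays. On the shared slide the sign was opposite, at 0.31 and 0.43. Without WT replicate 1 the differences were -0.45 and -0.10.

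Rpia encodes ribose 5-phosphate isomerase, which makes ribose 5-phosphate for nucleotide synthesis. Its probe A_51_P157472 lies on chromosome 6, from 70695280 to 70695326. The log2 signal was 10.44, 10.33 and 10.47 in WT and 10.29, 10.13 and 10.07 in TG-PKR1 hearts. The groups did not overlap, but the gap between WT replicate 2 and TG-PKR1 replicate 1 was narrow, and the groups overlapped when loess was replaced by scaling to the 75th percentile. The difference was -0.25 (SE 0.14, 95% interval -0.58 to 0.078), with a limma p of 0.118 and an adjusted p of 0.9999. It was -0.34 within the 2-gain arrays, -0.11 within the 1-gain arrays and -0.045 on the shared slide.

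Tkt encodes transketolase, which moves carbon units between sugar phosphates and links the pathway back to glycolysis. Of its 3 probes, only A_51_P394515 (chromosome 14, 29402464 to 29402523) was among the probes tested. Its log2 signal was 14.05, 12.68 and 13.67 in WT and 11.74, 11.14 and 11.28 in TG-PKR1 hearts. All TG-PKR1 hearts lay below all WT hearts, and WT replicate 2 was again the lowest WT heart. The difference was -2.08 (SE 0.33, 95% interval -2.85 to -1.32), with a limma p of 0.000194, the 35th smallest of the 20000 probes, and an adjusted p of 0.111. SAM called this probe lower at an estimated false discovery rate of 0, also in the deposited table of the authors, where its difference was -2.09. Over the alternatives, the adjusted limma p ranged from 0.0300, without WT replicate 2, to 0.99995, when all 41174 probes were tested. The Tkt probe lay lower in TG-PKR1 hearts at both scan settings and on the shared slide, by different amounts: the difference was -2.84 within the 2-gain arrays, -1.44 within the 1-gain arrays and -0.95 on the shared slide. With the scan setting as a block it was -2.14 (adjusted p = 0.365).

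The other Tkt probes were dim. A_52_P624447 (29403547 to 29403606) was well above background in 2 of 3 WT hearts and 0 of 3 TG-PKR1 hearts. Its log2 signal was 6.64, 6.20 and 6.51 in WT and 6.01, 5.84 and 5.84 in TG-PKR1 hearts, which did not overlap. The groups overlapped when loess was replaced by scaling to the 75th percentile, and the difference ranged from -2.84 (processed signal) to -0.45 (normexp) over the alternatives, with -0.46 without WT replicate 1. In the values used here, the WT signal was 1.47-fold that of TG-PKR1 hearts, where no array measured it well above background. Its adjusted p was 0.99995 in the limma fit over all 41174 probes. A_52_P631197 (29391288 to 29391347) was not well above background on any array, so its values, 5.77 to 5.84 in WT and 5.84 to 5.95 in TG-PKR1 hearts, carry no fold.

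Taldo1 encodes transaldolase, the partner of transketolase in the exchange of carbon units. Its probe A_51_P401958 lies on chromosome 7, from 141254185 to 141254244. The log2 signal was 14.56, 14.34 and 14.24 in WT and 13.92, 13.92 and 13.62 in TG-PKR1 hearts. The groups did not overlap, and the hearts of each group lay close together, although they overlapped when loess was replaced by scaling to the 75th percentile. The difference was -0.56 (SE 0.16, 95% interval -0.93 to -0.19), with a limma p of 0.00782 and an adjusted p of 0.9999. It was -0.79 within the 2-gain arrays, -0.37 within the 1-gain arrays and -0.42 on the shared slide.

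Idh1 was measured by A_51_P132978 on chromosome 1, from 65093737 to 65093796. Its log2 signal was 8.27, 7.66 and 7.80 in WT and 7.90, 7.61 and 8.07 in TG-PKR1 hearts. The groups were interleaved. The difference was -0.053 (SE 0.21, 95% interval -0.52 to 0.42, adjusted p = 0.9999), and its sign was positive, 0.17, within the 1-gain arrays and negative, -0.43, within the 2-gain arrays. On the shared slide it was 0.24.

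**Figure D2:**
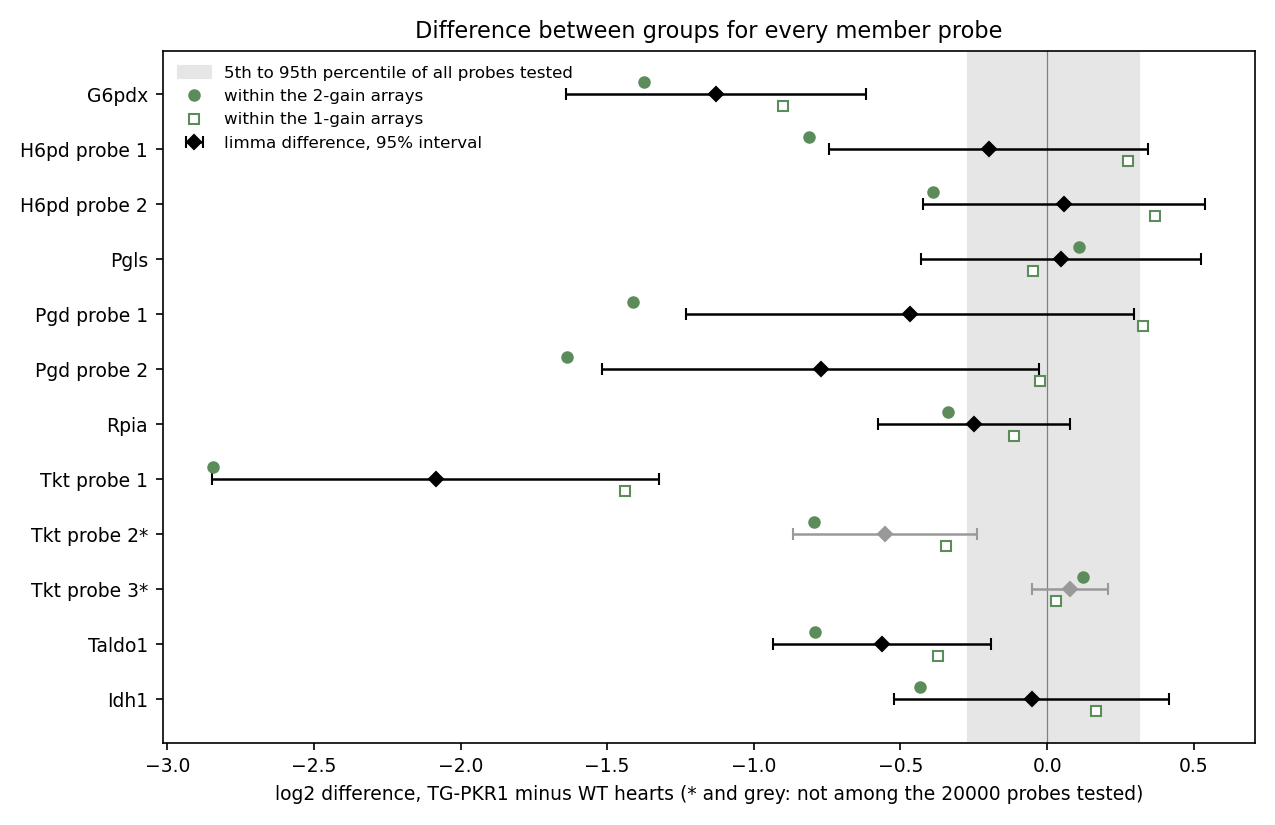
Difference in log2 signal between TG-PKR1 and WT hearts (TG-PKR1 minus WT) for all 12 member probes (diamonds, with limma's 95% interval), beside the differences within the 2-gain arrays (filled circles) and within the 1-gain arrays (open squares). The grey band holds the 5th to 95th percentile of the 20000 probes tested, -0.27 to 0.31; grey diamonds are the Tkt probes not tested. G6pdx, both Pgd probes, the tested Tkt probe, Tkt probe 2 and Taldo1 lie left of the band.

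The branches were compared by the mean, per heart, of their genes' log2 signals relative to the WT mean, with the probes of a gene averaged. These means are descriptions, and no test was made of them. The oxidative branch stood at 0.32, -0.22 and -0.10 in WT and at -0.28, -0.56 and -0.49 in TG-PKR1 hearts, a difference of -0.44. The non-oxidative branch stood at 0.26, -0.30 and 0.039 in WT and at -0.77, -1.02 and -1.10 in TG-PKR1 hearts, a difference of -0.97. Idh1 gave -0.053. The groups did not overlap for either branch, but in the oxidative branch WT replicate 2 and TG-PKR1 replicate 1, which shared a slide, differed by only -0.061.

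Single genes carried much of both differences. Without G6pdx, the oxidative branch differed by -0.21 and the groups overlapped. G6pdx and Pgd together differed by -0.87, while Pgls and H6pd together differed by -0.012. Without Tkt, the mean of Rpia and Taldo1 differed by -0.41 and the groups still did not overlap. The non-oxidative branch lay below the oxidative branch in each TG-PKR1 heart, by -0.49, -0.47 and -0.61, against -0.060, -0.083 and 0.14 in WT hearts. With Tkt and G6pdx both left out, that gap was -0.25, -0.050 and -0.28 in TG-PKR1 hearts. In WT hearts it was -0.27, 0.066 and 0.20, so the groups overlapped, with a difference of -0.19. By scan setting, the oxidative branch differed by -0.85 within the 2-gain arrays and -0.12 within the 1-gain arrays, and the non-oxidative branch by -1.32 and -0.64. As a block, the scan setting gave -0.48 and -0.98.

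**Figure D3:**
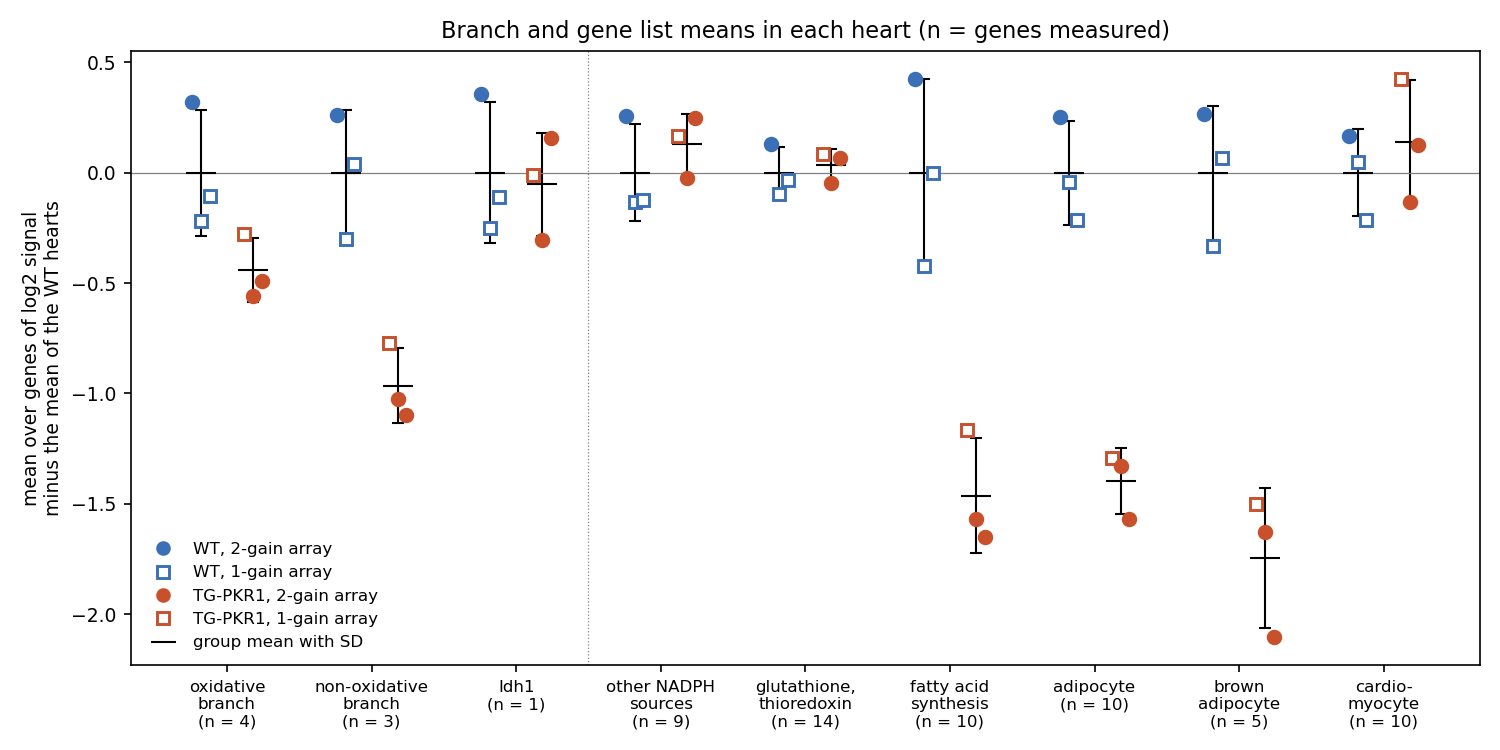
Mean over genes of log2 signal minus the WT mean in each heart, for the branches, Idh1 and comparison lists (n is the number of genes measured); filled circles are 2-gain and open squares 1-gain arrays, and bars give the mean with SD over 3 hearts. TG-PKR1 hearts lie apart from WT hearts in both branches and in the fatty acid synthesis, adipocyte and brown adipocyte lists, while the ranges of the groups overlap in the other lists.

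Other genes of pentose and ribose metabolism had small differences. Of the 6 measured, limma called 0, the groups overlapped for all 6, and the median difference was -0.056, where that of all 20000 probes was 0.030. The 4 with the smallest p were Rpe, the epimerase between the branches (-0.15), Prps1 and Prps2, which turn ribose 5-phosphate into the nucleotide precursor (0.14, with -0.028 on the other Prps1 probe, and -0.099), and the ribokinase Rbks (-0.12). Tktl1, Tktl2 and G6pd2, the close relatives of Tkt and G6pdx, were not among the probes tested.

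Among 9 other NADPH sources measured, 0 were called, 2 had a lower and 7 a higher mean in TG-PKR1 hearts, and the median difference was 0.19. The mean over these genes turned with the scan setting, at -0.14 within the 2-gain and 0.29 within the 1-gain arrays. Me1, the cytosolic malic enzyme, lay in the direction of G6pdx on both probes, with overlapping groups: -0.51 (SE 0.27) on one and -0.30 (SE 0.26) on the other, and a limma adjusted p of 0.9999 for each. On the shared slide these probes had the opposite sign, at 0.38 and 0.40. Me3, a mitochondrial malic enzyme, had log2 signals of 10.69, 10.45 and 10.49 in WT and 11.49, 10.82 and 11.72 in TG-PKR1 hearts. Every TG-PKR1 heart was above every WT heart for Me3, and the difference of 0.80 (SE 0.23) had a limma p of 0.00857 and an adjusted p of 0.9999. Aldh1l1, a cytosolic folate enzyme, differed by -0.70 (SE 0.26, adjusted p = 0.9999) without overlap, by -1.33 within the 2-gain arrays, which hold its brightest heart (WT replicate 1), and by -0.34 within the 1-gain arrays. Nnt, the mitochondrial transhydrogenase, differed by 0.52 (SE 0.29, adjusted p = 0.9999) on the probe with its smallest p, but by -0.16 within the 2-gain and 1.03 within the 1-gain arrays. Another tested Nnt probe gave 0.26 (SE 0.15), with 0.19 within the 2-gain and 0.20 within the 1-gain arrays. The remaining tested probe gave 0.30, with -0.13 within the 2-gain arrays.

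Pathways that use NADPH differed from each other in their values. In fatty acid synthesis, limma called 2 of 10 genes lower, 7 of 10 did not overlap, and the median difference was -1.61. These are counts of genes, some with several probes. Of all single probes tested, 0.095% were called lower and 2.73% lay lower without overlap. Fasn, the fatty acid synthase, fell by 2.75 on the log2 scale (SE 0.36, adjusted p = 0.0445) on one probe, with a difference of -2.49 (adjusted p = 0.184) on the other, and Elovl6, a fatty acid elongase, fell by 2.86 (SE 0.36, adjusted p = 0.0386). Within the 2-gain arrays, the 1-gain arrays and the shared slide, the first Fasn probe differed by -3.55, -1.81 and -1.57, Elovl6 by -3.43, -2.29 and -1.79, and the list median was -2.18, -0.93 and -0.75. Fasn on that probe and Elovl6 were lower under all 21 alternatives run on all or 5 hearts, but Fasn was called in 9 of them and Elovl6 in 10, and neither with the loess smoothed along the median profile alone, with the scan setting as a block or without TG-PKR1 replicate 1, 2 or 3 or WT replicate 1 or 3. In the glutathione and thioredoxin systems, 0 of 14 genes were called and the groups overlapped for all 14, with a median of 0.034, which was -0.13 within the 2-gain and 0.19 within the 1-gain arrays. Its 4 smallest p belonged to single probes of Txnrd2 (0.37), Gpx4 (0.28), Glrx (0.24) and Gsr (-0.22), with adjusted p of 0.9999. The other tested probes gave 0.11 and 0.14 for Txnrd2, and 0.21 and -0.13 for Gsr, which had both signs. Of 5 NADPH oxidase subunits, 0 were called; Ncf4 and Cybb each differed by -0.32 and Cyba by 0.055. Of 9 Nrf2 target genes, 0 were called (median 0.00037); on the probe with its smallest p, Srxn1 differed by -0.26, Hmox1 by -0.28, Gclm by 0.10 and Osgin1 by 0.13. The other tested probes of Srxn1 gave 0.081 and -0.0019, and those of Osgin1 0.086 and 0.092.

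The probes whose pattern over the 6 hearts was most like that of the Tkt probe were found among the 20000 by the Euclidean distance between log2 values relative to the WT mean. The nearest was Cdo1, cysteine dioxygenase, at a distance of 0.413, where the median over all probes was 3.86. Cdo1 stood at 0.68, -0.74 and 0.058 in WT and at -1.51, -2.28 and -2.49 in TG-PKR1 hearts. It was followed by Aspg (0.578), Gpd1, the cytosolic glycerol 3-phosphate dehydrogenase (0.617), Slc25a1, the citrate carrier that feeds fatty acid synthesis (0.722), and H2-Q10 (0.742). G6pdx ranked 48th at 1.75 and the nearer Pgd probe 105th at 2.29. Taldo1 ranked 248th, Rpia 841st, and Idh1 3161st.

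Adipocyte markers lay lower in the same hearts as Tkt and G6pdx. Of 10 adipocyte markers measured, limma called 4 lower (Adipoq, Plin1, Cidec and Car3, of which Adipoq alone was called with the loess smoothed along the median profile alone), the groups did not overlap for 10 of 10, and the list mean was 0.25, -0.042 and -0.21 in WT and -1.29, -1.33 and -1.57 in TG-PKR1 hearts. Among all single probes tested, the shares were 0.095% called lower and 2.73% lower without overlap. The summed signal of the adipocyte markers was 216405 to 286411 in WT and 131159 to 141033 in TG-PKR1 hearts. Adipoq, the adipokine adiponectin, fell by 1.93 on the log2 scale (SE 0.18, adjusted p = 0.0339), and Lep was not among the probes tested. The Adipoq difference was -2.30 within the 2-gain arrays, -1.62 within the 1-gain arrays and -1.62 on the shared slide. Its call held under 12 of 21 alternatives, but not with the scan setting as a block or without TG-PKR1 replicate 1 or 3 or WT replicate 1 or 3. Of 5 brown adipocyte markers, limma called Ucp1 lower (not with that other loess), 4 did not overlap, and the summed signal was 39773.6 to 68589.2 in WT and 10329.7 to 15551 in TG-PKR1 hearts. Among markers of macrophages, erythroid cells, endothelium, fibroblasts and epicardium, smooth muscle and cardiomyocytes, 0 were called and the group means overlapped in each list, with median differences of -0.14, -0.13, 0.017, -0.098, -0.10 and 0.13. Each of these medians differed in sign between the scan settings, that of the cardiomyocyte list being -0.13 within the 2-gain and 0.46 within the 1-gain arrays. The part of adipocyte content in the values of Tkt, G6pdx and the other members was not tested. Tkt and G6pdx themselves differed by amounts between those of the markers: -2.08 and -1.13. Single adipocyte markers ranged from -2.25 to -0.61 with the probes of a gene averaged. Among their single tested probes the range ended at -0.45 (a Cebpa probe), with -0.51 on a Lipe probe. Taldo1 (-0.56) and the Pgd probes (-0.77 and -0.47) lay within this range of single probes. Rpia (-0.25), Idh1 (-0.053), Pgls (0.047) and H6pd (-0.20 and 0.058) lay outside both ranges.

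**Figure D4:**
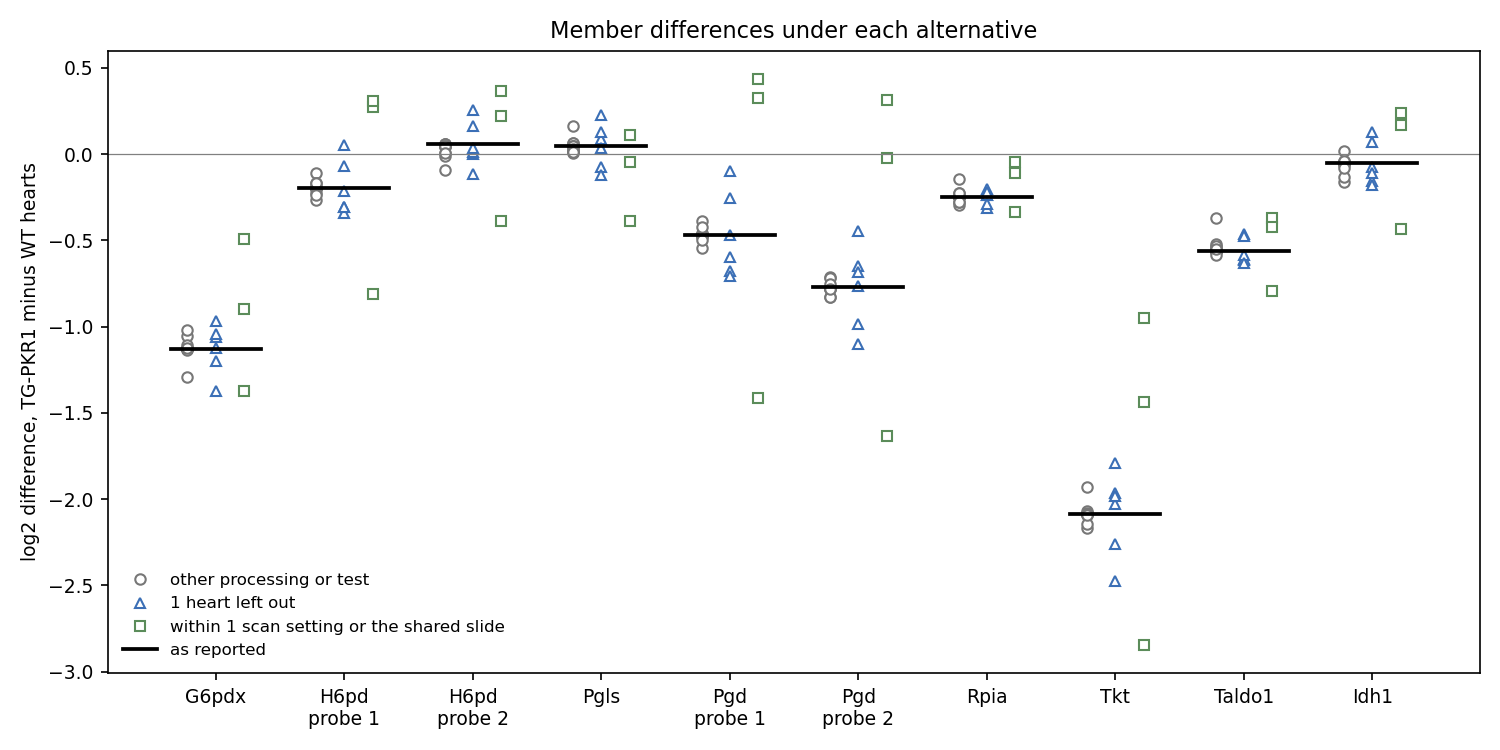
Log2 difference of each tested member probe as reported (black line), under other processing or tests (circles), with one heart left out (triangles), and within one scan setting or the shared slide (squares, no test). G6pdx, Rpia, Tkt and Taldo1 lie below 0 in all of these, while H6pd, Pgls, Pgd and Idh1 have values on both sides of 0.

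The start regions of Tkt and G6pdx are shown because these genes had the largest differences of their branches. The sequences come from RefSeq on GRCm38.p6, 250 bases before to 50 after the gene start, 300 in all, and are written 5′ to 3′ on the strand of the gene, with motif matches in capitals. The Tkt region lies at chr14:30548881-30549180 on the plus strand and the G6pdx region at chrX:74428831-74429130 on the minus strand.
Tkt: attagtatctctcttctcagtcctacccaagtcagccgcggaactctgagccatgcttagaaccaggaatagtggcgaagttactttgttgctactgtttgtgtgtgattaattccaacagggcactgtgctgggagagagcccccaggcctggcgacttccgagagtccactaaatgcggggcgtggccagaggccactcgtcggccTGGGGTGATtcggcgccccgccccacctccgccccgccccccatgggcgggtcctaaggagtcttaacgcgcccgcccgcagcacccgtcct
G6pdx: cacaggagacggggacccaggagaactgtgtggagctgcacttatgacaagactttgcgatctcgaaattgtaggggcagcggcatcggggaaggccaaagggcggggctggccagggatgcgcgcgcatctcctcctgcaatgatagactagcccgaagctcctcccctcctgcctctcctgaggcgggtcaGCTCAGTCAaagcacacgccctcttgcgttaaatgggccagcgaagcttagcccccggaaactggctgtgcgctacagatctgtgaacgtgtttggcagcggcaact
Both strands of the 10 regions that the table gives for the 8 genes were searched for the antioxidant response element core TGACNNNGC, the E-box CACGTG and the sterol regulatory element (ATCACCCCA followed by C). The first was found in G6pdx and in one of the Pgd regions, that is in 2 of 10, where 12.4% of all 32851 regions in the table hold it. In G6pdx the motif reads on the opposite strand. Its match begins, along the gene strand, at position -57 from the gene start. The E-box was in 0 of 10 (7.15% of all) and the full sterol regulatory element in 0 of 10 (0.0913% of all). A search without that last letter, added after the sequences had been seen, matched Tkt alone, where 0.28% of all regions hold it. This motif also reads on the opposite strand, and its match begins, along the gene strand, at position -42. A match describes letters in this window, and no binding was measured.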

How the data were processed

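RNA from 3 WT and 3 TG-PKR1 hearts was measured on 1-colour Agilent arrays. The authors deposited, per the file headers, spot intensity values extracted with Agilent Feature Extraction 9.5.1.1, not normalized between arrays. They also deposited a log2 table, which they made by a LOWESS correction to a median profile, followed by averaging repeated probes and keeping the brighter ones. No comparison columns of the authors were used, and probe positions are those of mm8 given in the files.

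Here, log2 median signals without background subtraction were used, since the methods name no such subtraction. The methods place background among the effects that LOWESS corrected. Control and outlier spots were dropped. For each array, the deviation from the median profile was removed by loess (span 0.3, 4 iterations) along the mean of array and profile. This axis was settled after seeing the data, including that smoothing along the profile alone gave 2 calls in place of 19. Spots were averaged by probe, and the 20000 brightest probes by median were tested with limma 3.58.1 (lmFit, eBayes) in R 4.3.3, with Benjamini-Hochberg adjustment over the 20000 probes at a threshold of 0.05. Probes outside these were fitted over all 41174. SAM was computed over all 20 assignments of the hearts, at an estimated false discovery rate of 0. The procedure was tested on simulated data. Precision is limited by there being 3 arrays a group and by signal over background.

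The members and the gene lists, which were written by hand, were chosen with earlier results of these data known. Genes were named by a rule: every member and probe, and from each pathway list the genes called or else the 4 with the smallest limma p. One gene that this rule names is not reported here. Cell type lists are given by counts and called genes. Names came from RefSeq (GRCm38.p6 table), by accession for 15391 of the 20000 probes, by name for 2985, and as in the files for 1624.

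Alternatives were the mean signal, the processed signal with 75th percentile scaling, normexp (offset 50) with quantile normalization, loess replaced by quantile normalization or by 75th percentile scaling, outlier spots kept, all probes, a filter on detection (at least 3 arrays well above background), the authors' table, trend and robust eBayes, SAM, a threshold of 0.1, probes averaged per gene, scan setting as a block, slide as a block, and each heart left out. Loess smoothed on the median profile alone, SAM on the authors' table and values within a scan setting or slide were chosen after seeing the data.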

Additional observations from a re-analysis of the deposited data

How the results depend on the processing

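No paired analysis was possible because nothing in the labels states which WT mouse goes with which TG-PKR1 mouse. The titles of WT replicate 2 and TG-PKR1 replicate 1, which shared a slide, have the first part of a number in common, and its meaning is not given in the sources used here. Slide as a block could not be fitted: with 5 slides for 6 arrays, a fixed block leaves no residual degree of freedom and limma's duplicateCorrelation returned no estimate, so only the values on the shared slide are given. With one heart left out, a group of 2 is assumed to vary like the other group.

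The differences of G6pdx (-1.38 to -0.97), Taldo1 (-0.63 to -0.37), Rpia (-0.31 to -0.15) and the tested Tkt probe (-2.48 to -1.79) were negative under every alternative run on all or 5 hearts. The groups for Taldo1 and Rpia overlapped with 75th percentile scaling, which left 2 member probes without overlap (G6pdx and Tkt) in place of 4. The Rpia groups also overlapped with the processed signal under the same scaling, but not with normexp and quantile normalization.

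The number of probes called lower was 0 with scaling to the 75th percentile, with every probe tested, with the filter on detection (at least 3 arrays well above background), with the scan setting as a block and in the authors' table. It was 2 with loess smoothed on the median profile alone (the axis of the loess was settled with this count known), 33 with quantile normalization, 31 with trend and robust eBayes, 54 with SAM and 38 with SAM on the authors' table, and 0 to 19 with one heart left out. The number called higher was 0 throughout, and 143 had an unadjusted limma p under 0.05. Of the member probes, Tkt was called by SAM in both tables, 1 of the 10 each time, and 0 to 1 were called with one heart left out (Tkt, without WT replicate 2). The 7 called genes of the comparison lists were lower throughout, and each call held under 8 (Car3) to 12 (Adipoq) of 21 alternatives. The cause of these changes was not tested.

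The non-oxidative branch difference of -0.97 became -0.68 with 75th percentile scaling, under which the dim Tkt probe A_52_P624447 was also among the probes kept. It became -0.55 with all probes, which adds the dim Tkt probes to the mean. It was -1.32 within the 2-gain arrays, -0.64 within the 1-gain arrays and -0.47 on the shared slide. For the oxidative branch these were -0.85, -0.12 and -0.061. Idh1 gave -0.43 within the 2-gain arrays and 0.24 on the shared slide. With one heart left out, the oxidative branch ranged from -0.55 to -0.28 and the non-oxidative branch from -1.12 to -0.83.

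Under other processing or with one heart left out, signs turned for H6pd, Pgls, Idh1 and a dim Tkt probe, none of them called. Within the scan settings or the shared slide, signs also turned for Pgd. With one heart left out, the first H6pd probe ranged from -0.34 to 0.053, the second from -0.11 to 0.25, Idh1 from -0.18 to 0.13 and Pgls from -0.12 to 0.22. The second H6pd probe gave -0.091 with 75th percentile scaling and -0.012 with the scan setting as a block, and Idh1 gave 0.016 with the processed signal. For the Tkt probe that was not well above background on any array, whose values carry no fold, the sign turned to -0.53 with 75th percentile scaling and to -0.16 with the processed signal.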
